A study of Homo sapiens with 42 samples.

Results

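The 8 RNA libraries compared here came from HAP1 cells, an adherent, near-haploid human line derived from a chronic myeloid leukaemia, and were chosen by genotype, treatment and name. Of the series' 42 libraries, 4 were of cells labelled neil123, in which the DNA glycosylases NEIL1, NEIL2 and NEIL3 are all deficient, and 4 of cells labelled wt. All 8 cultures had received BSO (buthionine sulfoximine) at 200 µM for 48 h, begun after 4 h. Each genotype was represented by 2 lines (1 and 2 of neil123, 1.1 and 1.3 of wt) with biological replicates A and B of each line, so a library is named by its line and letter (1A, 1.3B). The labels do not say how the lines were derived or whether a line is 1 clone, and p-values over 4 libraries measure the spread between replicates of only 2 lines a genotype. The same lines kept in media alone (8 libraries) and 4 BSO-treated libraries of cells deficient for NEIL3 only (neil3, lines 1 and 2) served as comparisons; they were no members of the 8.

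NEIL glycosylases start base excision repair by removing oxidized bases, mostly ring-opened purines and oxidized pyrimidines, from DNA. BSO inhibits glutamate-cysteine ligase, the first enzyme of glutathione synthesis, so treated cells lose their main soluble thiol and peroxides are cleared less well. Cells short of glutathione commonly raise NRF2 targets, which supply and recycle thiols, and ATF4 targets, which import and make amino acids.

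The 8 libraries held 27166592 to 29017005 reads assigned to table entries. Values are reads normalized for library size by the authors, in which 1 read was worth 0.971 to 1.04. Blood and endothelial defining markers PTPRC, GATA1, PECAM1 and CDH5 had at most 2.92 normalized reads in any library, and the epithelial CDH1 had 0 in all 8. Other markers of these lists were present: GATA2 at 1759 to 2057 and ITGA2B at 88.1 to 249 (blood), and KRT8 at 479 to 2047 and KRT18 at 1332 to 1929 (epithelial). The neural and progenitor gene SOX2 was at 33381 or more in every library. HAP1 has no single defining marker, so these levels are a description. Differences are log2 of neil123 over wt on the log2(value + 1) scale, and a gene is called when limma's Benjamini-Hochberg adjusted p over all 14394 genes tested (mean of 10 or more) is under 0.05.

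The 3 genes that the genotype names were looked at first. NEIL1 RNA was not lower: the neil123 libraries had 774 (1A), 1062 (1B), 1127 (2A) and 997 (2B) normalized reads, and wt 783 (1.1A), 868 (1.1B), 901 (1.3A) and 931 (1.3B). The groups overlapped, and the difference of 0.17 ± 0.10 (SE) did not pass the test (limma adjusted p = 0.335). Without neil123 1A it did (limma adjusted p = 0.0262). NEIL2 RNA was 179 ± 8.16 in neil123 and 358 ± 16.8 in wt (SD, n = 4 each), lower by 0.996 ± 0.081 on the log2 scale (limma adjusted p = 7.76e-06) with no overlap. NEIL3 RNA was 492 ± 52.3 against 641 ± 16 (SD, n = 4 each), lower by 0.39 ± 0.08 (adjusted p = 0.00685 by limma), and 0.056 when each line entered as 1 mean. The sources do not say which part of each gene was edited, so these RNA levels do not check the labels. Among 29 base excision repair genes, NEIL2 and NEIL3 were lower, and TDG, which removes thymine and oxidized methylcytosine opposite guanine, was called higher by 0.21 ± 0.06 (limma adjusted p = 0.0434). Each of the 8 libraries was left out in turn, and the call of TDG held only without wt 1.3A (adjusted p 0.00585 to 0.137 over the 8 fits). Of 54 genes of other repair pathways 3 were called higher and 1 lower, but 1 higher without any 1 of wt 1.1A, wt 1.1B, neil123 1A or neil123 1B and 0 without wt 1.3B. Of 10 genes that write or erase DNA methylation limma called 0 (0 at an unadjusted p under 0.05) and edgeR and DESeq2 0.

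Between the genotypes 903 genes were higher in neil123 (6.27% of those tested) and 696 lower (4.84%). Of these, 184 rose and 211 fell at least 2-fold. The median over all genes was 0.01, and scaling to equal totals counted without mitochondrial genes, a setting added after the data were seen, gave 692 higher and 863 lower. All 903 and all 696 had both neil123 lines on the same side of the wt mean. The genes were called on these same libraries, so this was nearly fixed by the call. The 4 against 4 values did not overlap for 2401 genes (16.7%). The call counts leaned on wt replicate 1.3B, without which 578 rose and 455 fell, and on having both wt lines: without line 1.1 the counts were 415 and 350, and without line 1.3 they were 391 and 280.

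The strongest falls left almost no RNA. TCEAL9, a member of the TCEAL family of X-linked adaptor-like proteins, had 577, 470, 776 and 703 normalized reads in wt 1.1A, 1.1B, 1.3A and 1.3B, and 2, 0, 0 and 0 in neil123 1A, 1B, 2A and 2B. Over the groups these were 2 reads against 2520, a ratio of 1278-fold (95% counting interval 353.5 to 10560). Its neighbour and relative TCEAL8 had 70.8, 70.9, 58.4 and 40.8 in wt and 2, 1.04, 0.973 and 0 in neil123 1A, 1B, 2A and 2B, a difference of -5.00 ± 0.38 (limma adjusted p = 3.89e-06). In both genes every neil123 library lay far under every wt library. Both were called lower in media too, with differences of -8.01 and -5.60, in libraries that the BSO comparison did not use. Other members of the family in the same stretch of the X chromosome did not follow: TCEAL1 was at 629 against 563 and TCEAL4 at 2005 against 1891, neither called, and BEX4 was higher by 0.37 ± 0.08 (limma adjusted p = 0.0139), a call lost without wt 1.3B (adjusted p = 0.053) and with 1 mean per line (0.0644).

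The 250 bases before the start of TCEAL9 (chrX:103356256-103356505, plus strand) and of TCEAL8 (chrX:103255156-103255405, minus strand), from RefSeq on GRCh38.p14, are shown because the pair moved together; capitals mark the longest run of letters the windows share, 28 bases beginning 34 bases before the TCEAL9 start and 28 before that of TCEAL8.
TCEAL9: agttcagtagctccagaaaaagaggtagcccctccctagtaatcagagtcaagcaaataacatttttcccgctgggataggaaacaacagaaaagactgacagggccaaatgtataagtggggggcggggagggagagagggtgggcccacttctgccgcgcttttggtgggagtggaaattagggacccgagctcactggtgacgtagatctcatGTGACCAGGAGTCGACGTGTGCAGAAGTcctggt
TCEAL8: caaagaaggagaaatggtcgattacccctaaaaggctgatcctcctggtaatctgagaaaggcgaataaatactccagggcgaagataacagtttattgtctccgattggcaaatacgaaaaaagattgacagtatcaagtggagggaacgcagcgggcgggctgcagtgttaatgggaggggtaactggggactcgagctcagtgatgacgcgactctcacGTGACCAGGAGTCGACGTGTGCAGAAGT
That run was searched on both strands of each whole sequence in the promoter table, not cut to the 250 bases before the start. It stood in 3 of 27305 genes there (0.011%): these 2 and 1 entry known only by a locus identifier. The TCEAL9 window held 8 CG dinucleotides and the TCEAL8 window 14. The median was 22 over the 7798 of 14394 tested genes with exactly 1 window in the promoter table, and genes with more were left out. A match of letters is a description of the windows and not of what binds there.

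GTSF1, which guards germ cells against transposons as a piRNA pathway partner, fell from 2239, 2095, 2453 and 2517 normalized reads in wt 1.1A, 1.1B, 1.3A and 1.3B to 16, 25.1, 7.78 and 6.03 in neil123 1A, 1B, 2A and 2B. The difference was -7.50 ± 0.32 (limma adjusted p = 5.71e-08), and -7.85 in media. Of 7 tested genes starting within 250 kb of the GTSF1 start, 3 were called lower and 0 higher, beside 4.84% lower over all genes tested. GTSF1 was by far the most abundant of the genes nearly lost in neil123, and the neil3 libraries kept it, at 2763, 2560, 2960 and 2643. Its window (chr12:54473603-54473852, minus strand), with CG in capitals, held 8 CG dinucleotides.
GTSF1: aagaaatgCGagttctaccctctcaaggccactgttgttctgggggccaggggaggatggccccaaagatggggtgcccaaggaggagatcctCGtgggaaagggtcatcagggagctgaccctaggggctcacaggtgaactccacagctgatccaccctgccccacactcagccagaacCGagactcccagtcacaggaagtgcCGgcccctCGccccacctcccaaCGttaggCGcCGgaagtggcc
The promoter of TMEM47, the most abundant of the strongest rises, is given for contrast (chrX:34657286-34657535, minus strand) and held 34 CG dinucleotides. That was the most among the 6 of the 15 largest rises with exactly 1 window (10 to 34, median 14). The 8 of the 15 largest falls with exactly 1 window held 8 to 33 (median 16.5). The windows shown thus do not stand for these sets. Of the tested genes with exactly 1 window 77.2% held 15 or more.
TMEM47: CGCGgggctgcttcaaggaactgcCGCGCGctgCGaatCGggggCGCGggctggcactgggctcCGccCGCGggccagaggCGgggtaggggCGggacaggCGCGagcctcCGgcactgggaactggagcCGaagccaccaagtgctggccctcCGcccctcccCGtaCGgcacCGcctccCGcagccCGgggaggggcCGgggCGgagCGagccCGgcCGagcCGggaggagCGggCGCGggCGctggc

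GABRA5, a subunit of the GABA-A receptor, had 333 to 694 normalized reads in the 4 wt libraries and 0 to 1.95 in neil123, 3 reads over the group against 2001 (a ratio of 676.6-fold, 95% counting interval 231.2 to 3284). SNTG2, a syntrophin, had 3 reads against 509, and CNTN1, a neuronal adhesion protein, 1 read against 243. STAC, an adaptor of voltage-gated calcium channels, was at 1.99 ± 1.12 against 129 ± 24.6 (SD, n = 4 each; -5.51 ± 0.30, limma adjusted p = 2.4e-07). In all, 10 genes averaged under 5 normalized reads in neil123 and 50 or more in wt, and each of the 10 was called lower in media as well. They were SNTG2, STAC, CNTNAP2, CROT, TCEAL9, TCEAL8, CNTN1, FAM155A, GABRA5 and BMP2. The reverse, under 5 in wt and 50 or more in neil123, held for 4 genes. All 4 were called with BSO and 3 in media.

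CROT and ABCB1 lie near each other on chromosome 7, with a gap between them (chr7:87345664-87399794 and chr7:87503017-87713295, GRCh38.p14 gene bounds). CROT encodes the peroxisomal carnitine octanoyltransferase and ABCB1 the drug efflux pump P-glycoprotein. CROT had 100, 142, 107 and 90.3 normalized reads in wt 1.1A, 1.1B, 1.3A and 1.3B, and 1, 1.04, 3.89 and 2.01 in neil123 1A, 1B, 2A and 2B. ABCB1 had 240, 416, 218 and 356 in wt and 15, 21.9, 0.973 and 5.03 in neil123. Line 2 of neil123 thus had less ABCB1 RNA than line 1, and both lines were under every wt library. The only other tested gene starting within 250 kb of the ABCB1 start was RUNDC3B. It was lower as well, at 24.0 ± 8.39 against 104 ± 13.3 (SD, n = 4 each), a difference of -2.12 ± 0.23 (limma adjusted p = 7.23e-05). RUNDC3B was named after its value was seen. Further large falls were PDE10A, a cyclic nucleotide phosphodiesterase (-4.63 ± 0.47), MYO5C, an epithelial myosin motor (-4.53 ± 0.23), and PAK6, a kinase (-4.31 ± 0.24). MFAP2, a microfibril protein, was at 0 (2B) to 25 (1A) normalized reads in neil123 against 164 or more in wt (-5.28 ± 0.81, limma adjusted p = 0.00109).

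Among the rises, CHMP4C, an ESCRT-III subunit that times the last step of cell division, went from 5.21, 0, 6.04 and 8.74 normalized reads in wt 1.1A, 1.1B, 1.3A and 1.3B to 315, 290, 277 and 336 in neil123 1A, 1B, 2A and 2B (6.07 ± 0.55, limma adjusted p = 1.76e-05). It was the 1 of 14 tested ESCRT-III genes that was called. PGR, the progesterone receptor, was at 638, 604, 607 and 616 in neil123 and at 17.7, 21.0, 29.2 and 30.1 in wt (4.63 ± 0.16, adjusted p = 2.35e-08 by limma). DCAF12L2, a WD-repeat gene of the X chromosome, was at 742, 603, 745 and 623 against 10.4, 12, 30.2 and 17.5. For all 3 genes the lowest neil123 library was far above the highest wt library, and the neil123 lines stood close to each other.

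TMEM47, a claudin-like junction protein, was at 6479, 7272, 7166 and 7717 normalized reads in neil123 1A, 1B, 2A and 2B, and 688, 494, 494 and 262 in wt 1.1A, 1.1B, 1.3A and 1.3B (3.96 ± 0.21, limma adjusted p = 2.37e-07). COL5A2, a fibrillar collagen chain, was at 5621, 4271, 3349 and 3049 against 317, 155, 431 and 226 (3.91 ± 0.27). Line 1 of neil123 had more COL5A2 RNA than line 2, and the adjoining COL3A1 was also higher, at 35.7 ± 20.1 against 5.78 ± 4.96 (SD, n = 4 each; 2.54 ± 0.48, limma adjusted p = 0.00471). VCAN, the matrix proteoglycan versican, was at 701 ± 189 against 52.1 ± 25.5 (3.83 ± 0.30). The others of the 15 largest rises (mean of 50 or more in neil123 and no overlap) were ARSL (4.01 ± 0.33), a sulfatase, NOL4 (3.79 ± 0.45), SELENBP1 (3.68 ± 0.46), a selenium-binding protein, PGM5 (3.53 ± 0.14), TLX3 (3.52 ± 0.24), a homeobox factor of sensory neurons, KCTD11 (3.51 ± 0.33), NRXN3 (3.37 ± 0.24), a presynaptic neurexin, and CABYR (3.31 ± 0.15). The last, NPR3, the natriuretic peptide clearance receptor, was uneven, at 144 and 38.6 in line 1 and 10.7 and 12.1 in line 2 of neil123 against 3.12 or fewer in wt, and without neil123 replicate 1A its mean was under the filter and it was not tested.

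**Figure D1:**
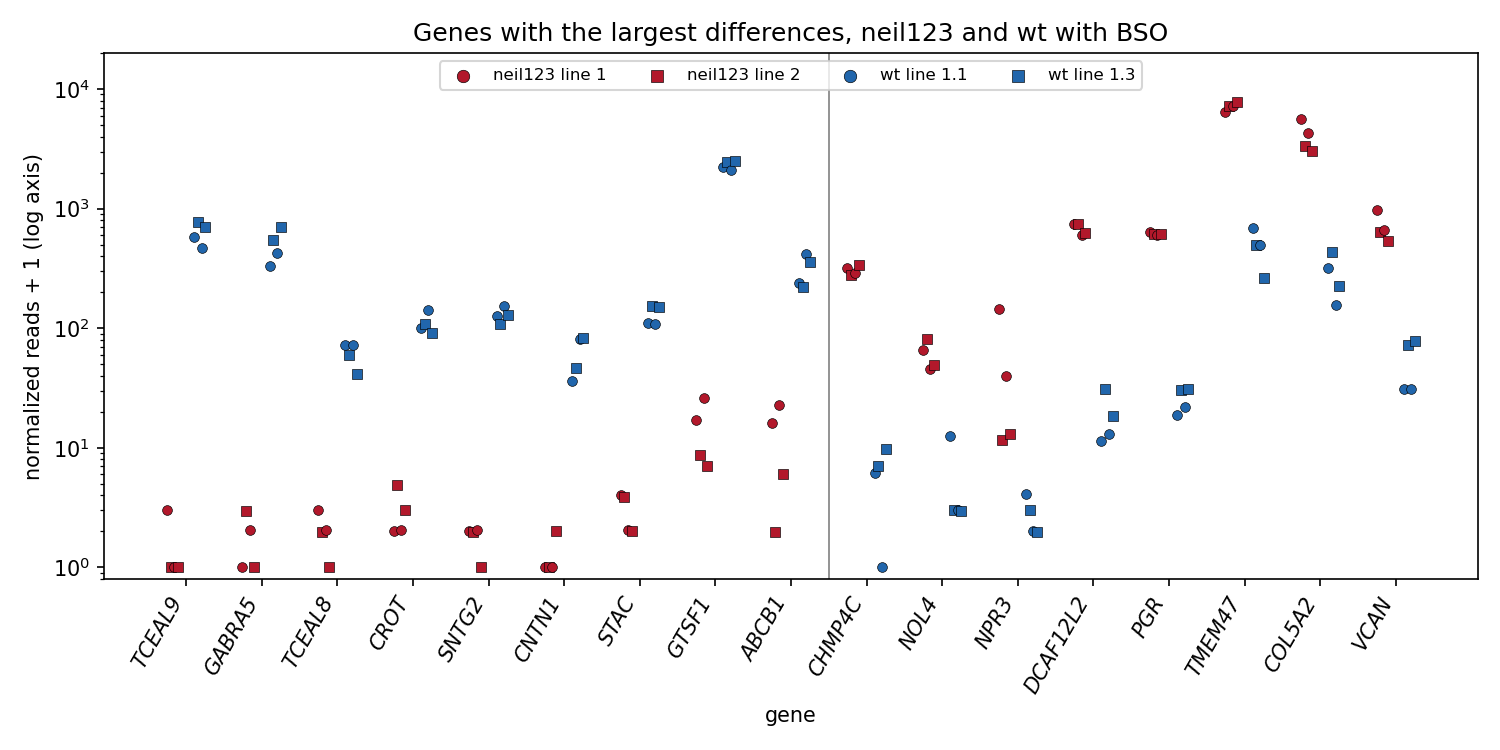
Normalized reads plus 1 (log axis) of 17 genes in each of the 8 BSO-treated libraries, falls left of the grey line and rises right of it; red is neil123, blue is wt, and the marker shape gives the line. No neil123 point reaches the wt points of its gene, with TCEAL9 at 2 or fewer normalized reads in neil123 and at 470 or more in wt.

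The neil3 cells, which lack 1 of the same 3 glycosylases, were set beside neil123 under the same treatment: 450 genes were higher and 410 lower in neil123 (860 of 14412, 5.97%). With each line entered as 1 mean, 46 and 35 were called, and without neil123 replicate 2A 291 were higher. TCEAL9 was near absent in neil3 too, at 2.02 and 1.96 normalized reads in line 1 and 5.18 and 0 in line 2, as was TCEAL8, at 6.05, 1.96, 0 and 0; with both groups so low these genes were not tested. CHMP4C differed from neil3 by 7.05 ± 0.48 (limma adjusted p = 1.41e-05), PGR by 6.10 ± 0.35 (adjusted p = 3.88e-06) and GTSF1 by -7.73 ± 0.34 (adjusted p = 7.21e-07). Several other large differences split the neil3 lines. TMEM47 was at 334 and 140 in neil3 line 1 and at 5889 and 6387 in line 2, DCAF12L2 at 447 and 406 in line 1 and 8.29 and 5.95 in line 2, and PAK6 at 32.3 and 24.5 in line 1 and 798 and 829 in line 2. For none of these 3 did the test against neil3 pass (limma adjusted p = 0.195, 0.139 and 0.13). BMP7, a bone morphogenetic protein, was at 1791 ± 80.7 in neil123, 331 ± 114 in wt and 1832 ± 189 in neil3 (SD, n = 4 each); neil123 exceeded wt by 2.50 ± 0.19 and differed from neil3 by -0.03 ± 0.07 (limma adjusted p = 0.877). The neil3 cells share the wt libraries as controls, so their own difference from wt is not a separate line of evidence.

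Glutathione genes moved in small steps. Of 17 tested genes that make glutathione or supply its amino acids, 1 was higher and 4 were lower, with a median of -0.22. Without wt line 1.3 none was lower, and without neil123 line 2 only 1 was. GCLC, the catalytic subunit of the enzyme that BSO blocks, was at 2216, 2065, 2376 and 2267 normalized reads in neil123 1A, 1B, 2A and 2B and at 1849, 1742, 1907 and 1718 in wt 1.1A, 1.1B, 1.3A and 1.3B (0.31 ± 0.05, limma adjusted p = 0.00271). Its regulatory partner GCLM was at 2028 ± 66.5 against 1771 ± 224 with overlap and no call (limma adjusted p = 0.117, but 0.0373 with 1 mean per line). GSS, which adds the last residue, was lower in every neil123 library, at 1827, 2019, 1943 and 1919 against 2256, 2244, 2250 and 2203 (-0.22 ± 0.04, limma adjusted p = 0.00557). The RNAs of the first and the last enzyme thus differed in opposite directions.

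CTH, which makes cysteine from cystathionine, was lower by 0.52 ± 0.11 (limma adjusted p = 0.00923), and the neutral amino acid carriers SLC1A4 and SLC1A5 by 0.40 ± 0.08 and 0.28 ± 0.07, SLC1A5 not without wt 1.1A or 1.3B (adjusted p up to 0.0541). The cystine importer SLC7A11 was at 4940, 4305, 4167 and 2841 in neil123 and 6091, 3511, 6152 and 4286 in wt, overlapping and not called (-0.29 ± 0.19, limma adjusted p = 0.38). Of 13 glutathione peroxidases, reductase and glutaredoxins limma called 0 (4 at an unadjusted p under 0.05), edgeR 0 and DESeq2 1; GPX4, which reduces lipid hydroperoxides, was at 6478 ± 132 against 6377 ± 205 (SD, n = 4 each), and GSR, which passed with 1 mean per line (limma adjusted p = 0.0286), at 5413 ± 357 against 4774 ± 548. Of 13 glutathione transferases 3 were higher and 0 lower: GSTM3 (450 ± 62.5 against 144 ± 37.0, 1.66 ± 0.18), GSTM2 (222 ± 65.8 against 70.7 ± 19.1, 1.63 ± 0.23) and GSTA4 (0.36 ± 0.07). By limma the largest adjusted p among these 3 was 0.00554. Genes of the GSTM family, to which GSTM2 and GSTM3 belong, may share reads, which was not tested.

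The thioredoxin and peroxiredoxin list had 4 of 22 higher, or 2 without wt 1.1B, wt 1.3B or neil123 2B, and 1 lower. MSRB3, a methionine sulfoxide reductase, was at 976, 1017, 888 and 963 in neil123 1A, 1B, 2A and 2B and 758, 765, 752 and 744 in wt 1.1A, 1.1B, 1.3A and 1.3B (0.35 ± 0.06, limma adjusted p = 0.00148), and PRDX6, a peroxiredoxin that reduces phospholipid hydroperoxides, was higher by 0.24 ± 0.04. TXNIP, which binds and blocks thioredoxin, was the 1 that fell, from 646, 574, 655 and 601 in wt to 362, 413, 397 and 437 in neil123 (-0.62 ± 0.08, limma adjusted p = 0.000216). Of 27 NRF2-induced genes 1 was higher and 2 lower, or 1 lower without any 1 of wt 1.1A, 1.3A and 1.3B and neil123 1A, 2A and 2B, near the shares over all genes. ME1, which makes NADPH from malate, was the 1 that rose (0.55 ± 0.11, limma adjusted p = 0.00591), and NQO1 (8902 ± 995 against 7306 ± 1357), HMOX1 (2425 ± 324 against 3066 ± 874) and TXNRD1 (16256 ± 2999 against 15096 ± 3734) overlapped without a call. With 1 mean per line NQO1 (limma adjusted p = 0.0375) and HMOX1 (0.013) passed.

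Genes of cholesterol synthesis were higher as a group: 17 of 24 were called higher and 0 lower, and 23 of 24 had a difference above 0, with a median of 0.28 beside 0.01 over all genes. HMGCS1, a synthase early in the pathway, was at 4621, 4317, 5222 and 5384 normalized reads in neil123 1A, 1B, 2A and 2B and 2835, 3595, 2977 and 2945 in wt 1.1A, 1.1B, 1.3A and 1.3B (0.66 ± 0.08, limma adjusted p = 0.000232). IDI1, the isopentenyl isomerase, rose by 0.40 ± 0.05, and STARD4, a sterol carrier, by 0.37 ± 0.06. INSIG1, which holds the sterol sensor SCAP in the endoplasmic reticulum, was at 1622 ± 162 against 1154 ± 207 (0.50 ± 0.11, limma adjusted p = 0.00929). For these 4 genes the neil123 libraries lay above all wt libraries. The steps of the list were small, and the count of higher genes was 7 without wt line 1.3 and 9 without neil123 line 2.

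The list's level by library shows how the groups stood. As the median over the 24 genes relative to the mean of wt with BSO, wt 1.1A, 1.1B, 1.3A and 1.3B were at -0.05, 0.10, -0.07 and 0.02, and neil123 1A, 1B, 2A and 2B at 0.30, 0.25, 0.27 and 0.36. In media the wt libraries were at 0.23 to 0.34 and the neil123 libraries at 0.38 to 0.45. Sterol genes were thus lower with BSO than in media in both genotypes, by a median of 0.29 in wt and 0.16 in neil123, and neil123 with BSO stood about where wt in media did. The sterol regulatory element TCACNCCAC, searched on both strands, was in the promoter window of 0 of 11 called and 1 of 7 uncalled sterol genes found in the table, and in 1.09% of all genes there. Fatty acid genes moved less, with 5 of 17 higher and 1 lower. The 5 became 2 without wt 1.1A and 3 without any 1 of wt 1.3A, wt 1.3B, neil123 2A and neil123 2B, and 1 with any 1 of both wt lines and neil123 line 2 left out. The 1 lower gene, SCD5, was called in only 2 of those 8 fits. ELOVL6, which lengthens palmitate, held in all of them (0.30 ± 0.05, limma adjusted p = 0.00131). The ferroptosis list, which holds lipid and quinone enzymes, had 5 of 32 higher and 1 lower, with 2 higher without wt 1.1A or 1.3A and 3 without wt 1.3B, neil123 1A, 2A or 2B. ALOX5, a lipoxygenase, rose by 0.99 ± 0.21 and DPP4, a surface peptidase, fell by 1.33 ± 0.22 (limma adjusted p = 0.0103 and 0.00207). ACSL4, which loads polyunsaturated fatty acids, was at 1383 ± 63.6 against 1213 ± 59.2 (0.19 ± 0.05, adjusted p = 0.0404 by limma), a call kept only without wt 1.1B or neil123 2A (adjusted p 0.0324 to 0.127 over the 8 fits), and AIFM2, the quinone reductase FSP1, was not called (1467 ± 63.0 against 1364 ± 82.4).

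**Figure D2:**
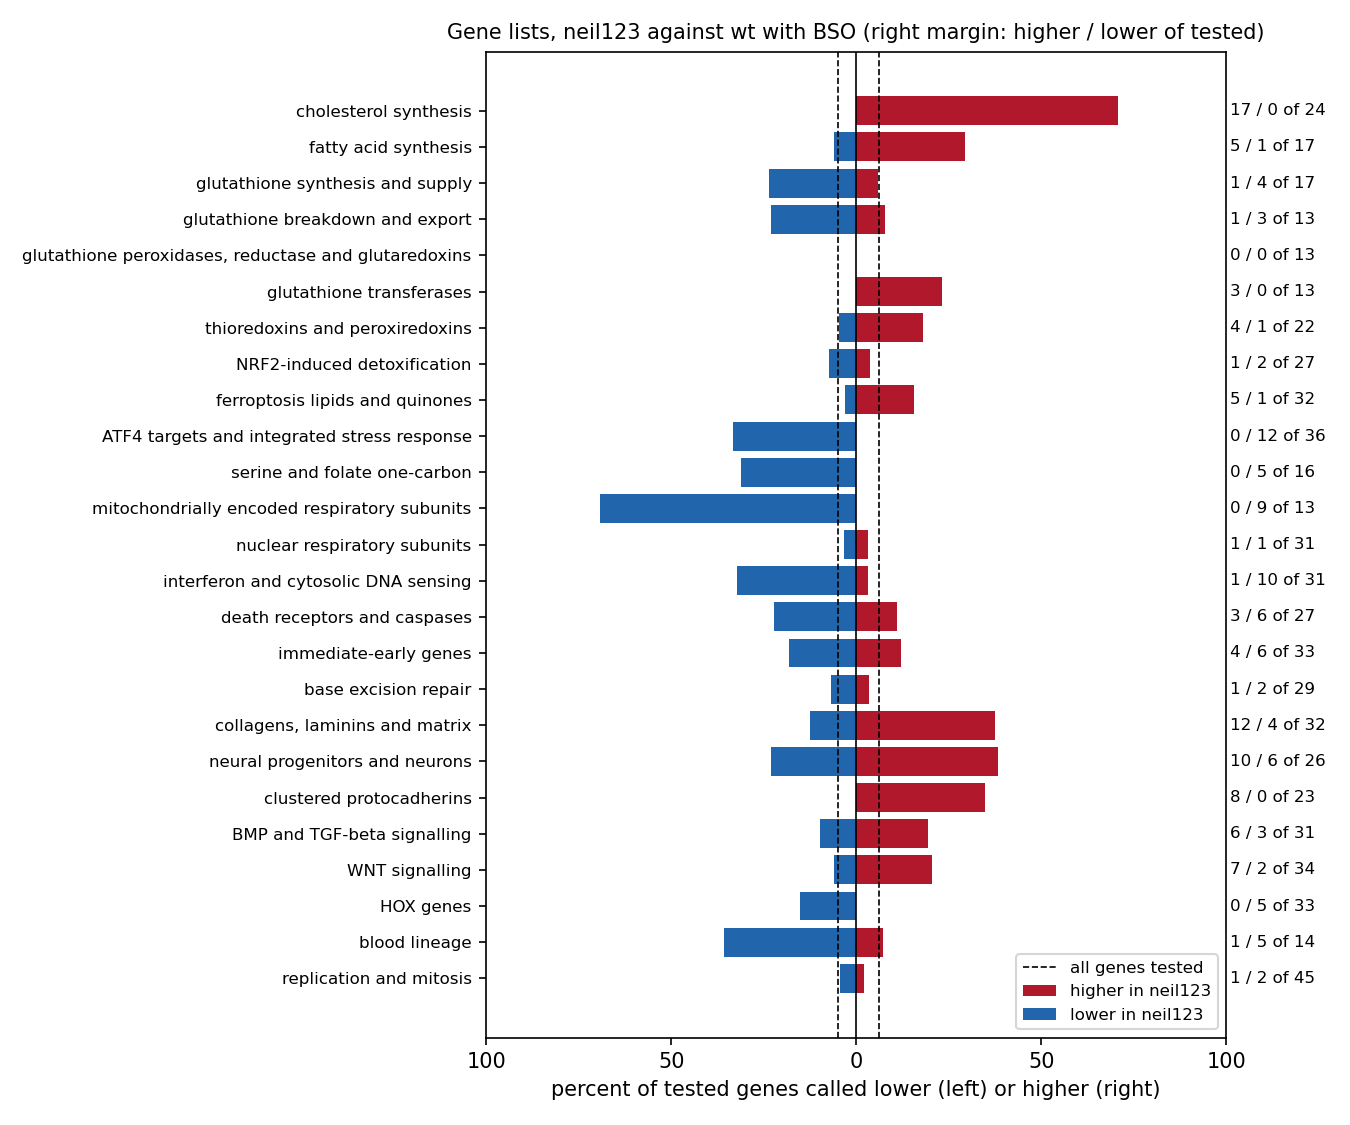
Percent of the tested genes of 25 lists called higher (red, right) or lower (blue, left) in neil123 than in wt with BSO, with counts in the margin; dashed lines give the shares over all genes tested, 6.27% higher and 4.84% lower. Cholesterol synthesis has 17 of 24 higher and 0 lower, and the mitochondrially encoded genes 9 of 13 lower and 0 higher.

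ATF4 targets were lower: 12 of 36 were called lower and 0 higher, with a median of -0.27, and 34 of 36 had a difference under 0. This count depended on the libraries more than any other group described here. It was 27 without wt 1.1B, 6 without wt 1.1A or 1.3B, 7 without wt 1.3A, neil123 2A or neil123 2B, and 0 without wt line 1.3 or without neil123 line 2 (the group's median was then -0.20 and -0.13). DDIT4, an inhibitor of growth signalling, was at 913, 1386, 841 and 760 normalized reads in neil123 1A, 1B, 2A and 2B, and at 1786, 1249, 1768 and 1802 in wt 1.1A, 1.1B, 1.3A and 1.3B (-0.78 ± 0.17, limma adjusted p = 0.00931). ASNS, asparagine synthetase, was at 75.1, 133, 80.7 and 72.4 against 156, 115, 172 and 172 (-0.79 ± 0.20, limma adjusted p = 0.0239), a call kept only without wt 1.1B or neil123 1B (adjusted p 0.00265 to 0.0847 over the 8 fits). In both genes neil123 1B exceeded wt 1.1B, and the remaining libraries did not overlap. ATF4 itself was not called, at 19179 ± 1349 against 21060 ± 1486.

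Parts of the promoter windows, 128 bases cut around the match, are given for ASNS (chr7:97872409-97872536, minus strand) and AARS1, alanyl-tRNA synthetase (chr16:70289626-70289753, minus strand). They are shown because both genes were called lower and hold letters like the element that ATF4 recognises, in capitals. These letters are TGATGAAA in ASNS, and TTGCATCA, its reverse complement written TGATGCAA, in AARS1.
ASNS: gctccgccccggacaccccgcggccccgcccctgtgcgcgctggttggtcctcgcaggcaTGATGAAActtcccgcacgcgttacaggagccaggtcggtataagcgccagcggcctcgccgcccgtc
AARS1: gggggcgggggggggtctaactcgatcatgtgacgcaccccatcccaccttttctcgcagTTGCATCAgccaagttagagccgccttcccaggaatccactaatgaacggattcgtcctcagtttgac
TGATGNAA, searched on both strands, was in 6 of 30 listed genes found in the promoter table (2 of 7 called lower and 4 of 23 not called) and in 3.89% of all genes there. AARS1 was at 8154 ± 606 against 9987 ± 644 (SD, n = 4 each; -0.29 ± 0.06, limma adjusted p = 0.00688). Genes of serine and folate metabolism, which partly overlap the ATF4 list in function, had 5 of 16 lower and 0 higher (3 lower without wt 1.1A, 8 without wt 1.1B, 0 without wt line 1.3 and 1 without neil123 line 2). PSPH, the last enzyme of serine synthesis, was at 2314, 2270, 2125 and 2029 in neil123 and 3067, 2467, 3053 and 2854 in wt (-0.39 ± 0.07, limma adjusted p = 0.00336), and PHGDH, the first, at 10058 ± 982 against 12826 ± 1373 (-0.35 ± 0.08), not called without wt 1.1A (adjusted p = 0.0513).

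With media beside BSO, the ATF4 list was high with BSO in both genotypes, by a median over genes of 0.57 in wt and 0.38 in neil123. Relative to the mean of wt with BSO, the list's median by library was -0.59 to -0.50 in wt in media and -0.74 to -0.59 in neil123 in media. With BSO it was 0.14, -0.26, 0.13 and -0.02 in wt 1.1A, 1.1B, 1.3A and 1.3B, and -0.15, -0.16, -0.32 and -0.44 in neil123 1A, 1B, 2A and 2B. Wt 1.1B lay among the neil123 libraries. For 35 of the 36 genes the BSO minus media difference was smaller in neil123 than in wt, beside 6513 of all 14394 genes tested, and no gene of the list passed the test of that difference.

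The 13 protein genes of mitochondrial DNA, which encode respiratory chain and ATP synthase subunits, were all under wt: 9 were called lower and 0 higher, with a median of -0.31. COX1 was at 128381, 165786, 138682 and 142447 normalized reads in neil123 1A, 1B, 2A and 2B and 197578, 179590, 192926 and 191440 in wt 1.1A, 1.1B, 1.3A and 1.3B (-0.41 ± 0.07, limma adjusted p = 0.00269). CYTB was at 38941, 50671, 43207 and 47253 against 58365, 56669, 60103 and 60754 (-0.40 ± 0.07). Neither gene's groups overlapped. The share of reads from mitochondrial genes was 2.08% to 2.72% in neil123 and 2.99% to 3.21% in wt. Of 31 nuclear genes for subunits of the same complexes 1 was higher and 1 lower, with a median of 0.07, and over the fits without 1 library 0 to 3 were higher and 0 or 1 lower. The count of lower mitochondrial genes was 6 without wt 1.1A or 1.3B, 5 without wt line 1.1 and 1 without wt line 1.3. In the fit of all 42 libraries it was 1 (median -0.31). Whether these RNAs have a part in other differences was not tested.

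In media the same 13 genes had a median difference of -0.02. Relative to the mean of wt with BSO, their median by library was -0.55 to -0.24 in wt in media, -0.07 to 0.05 in wt with BSO, -0.56 to -0.29 in neil123 in media and -0.51 to -0.17 in neil123 with BSO. The wt lines thus had more mitochondrial RNA with BSO than in media (a median of 0.40 over genes) and the neil123 lines nearly as much in both (0.09), and for 13 of 13 genes the BSO minus media difference was smaller in neil123. In bulk RNA, fewer transcripts per cell and fewer mitochondrial genomes cannot be told apart.

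**Figure D3:**
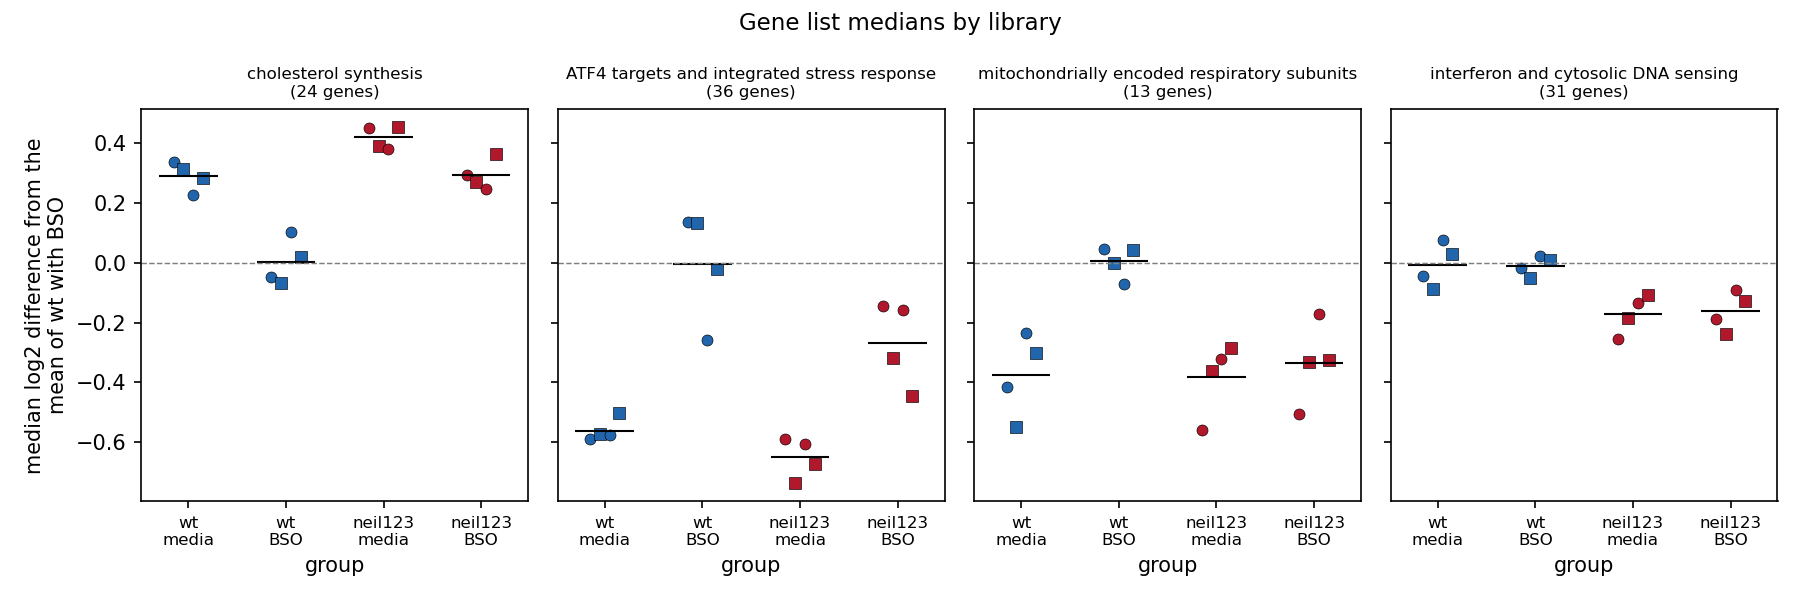
Median log2 difference from the mean of wt with BSO over the tested genes of 4 lists, 1 point a library (blue wt, red neil123, marker shape by line; black bars are means of 4). For cholesterol synthesis neil123 with BSO lies at 0.25 to 0.36 against -0.07 to 0.10 in wt; mitochondrially encoded genes lie at -0.56 to -0.17 in neil123 with and without BSO and at -0.07 to 0.05 in wt with BSO.

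Interferon-related and DNA-sensing genes had 10 of 31 lower and 1 higher, with a median of -0.14, and -0.12 in media. The count of lower genes was 6 without wt 1.1B or 1.3B and with 1 mean per line, 4 without wt line 1.1 and 5 without wt line 1.3. STING1, the adaptor that signals from cytosolic DNA, was at 47.1, 41.8, 86.5 and 93.5 normalized reads in neil123 1A, 1B, 2A and 2B and 212, 186, 184 and 160 in wt 1.1A, 1.1B, 1.3A and 1.3B (-1.53 ± 0.24, limma adjusted p = 0.00125). In line 2 of neil123 STING1 was higher than in line 1 but under every wt library. PSMB8, an immunoproteasome subunit, was at 39.5 ± 10.8 against 104 ± 17.7 (-1.40 ± 0.20). IFIT5 was the 1 that rose (0.33 ± 0.06). Neil3 line 1 had 185 and 207 normalized reads of PSMB8 and line 2 had 5.18 and 8.93.

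Of 27 death receptor, caspase and gasdermin genes 3 were higher and 6 lower, with 2 lower without wt 1.1A or neil123 1B and 3 without wt 1.3A, wt 1.3B or neil123 2B. With either wt line left out 1 was higher. TNFRSF10D, a decoy receptor for TRAIL, rose from 489, 461, 536 and 479 in wt 1.1A, 1.1B, 1.3A and 1.3B to 698, 640, 710 and 637 in neil123 1A, 1B, 2A and 2B (0.45 ± 0.07, limma adjusted p = 0.00112), and CYCS, cytochrome c, by 0.25 ± 0.06. CFLAR, the caspase-8 inhibitor FLIP, fell by 0.29 ± 0.06 (limma adjusted p = 0.00506), and TNFRSF21, death receptor 6, by 0.60 ± 0.10. Of 19 BCL2 family genes 1 was called, the BH3-only HRK (-1.49 ± 0.41), whose groups overlapped and whose call was lost without any 1 of wt 1.1A, 1.3A and 1.3B and neil123 2A and 2B (adjusted p up to 0.097). The median over the 27 death receptor genes was -0.04.

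Immediate-early genes went both ways, with 4 of 33 higher and 6 lower (3 lower without wt line 1.1 or with 1 mean per line, 2 higher without wt line 1.3 or neil123 line 1). FOS was at 573, 292, 234 and 102 normalized reads in wt 1.1A, 1.1B, 1.3A and 1.3B and at 37.0, 66.8, 24.3 and 28.1 in neil123 1A, 1B, 2A and 2B (-2.76 ± 0.44, limma adjusted p = 0.00138). NR4A2, an inducible nuclear receptor, was at 384 ± 137 against 144 ± 29.9 (SD, n = 4 each; -1.37 ± 0.22). CCN1, a secreted matrix protein induced by YAP and serum, was at 10019, 8738, 6611 and 6393 in neil123 against 5604, 4036, 5105 and 4341 (0.72 ± 0.14, limma adjusted p = 0.00489), and FOSL2, another AP-1 partner, rose by 0.66 ± 0.13. FOS and FOSL2 thus stood on opposite sides.

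Lineage and matrix genes were called in both directions. Of 32 collagens, laminins and other matrix genes 12 were higher and 4 lower (2 lower without wt 1.3A or 1.3B, or with 1 mean per line), and beside COL5A2, VCAN and COL3A1 the largest was COL9A3, at 879 and 712 in neil123 line 1, 424 and 314 in line 2, and 218 to 269 in wt (1.14 ± 0.25, limma adjusted p = 0.0113, but 0.0812 with 1 mean per line). LAMA4, a laminin chain of vessel walls, fell by 1.51 ± 0.20, and NID2, a basement membrane nidogen, by 0.89 ± 0.16. Of 26 neural genes 10 were higher and 6 lower (5 higher and 3 lower without wt line 1.1, 3 lower without wt line 1.3, and 5 higher in the fit of all 42 libraries). GAP43, a growth cone protein, was at 215, 123, 218 and 183 in neil123 1A, 1B, 2A and 2B against 21.9, 16, 29.2 and 20.4 in wt (3.02 ± 0.22, limma adjusted p = 3.16e-06), and NES, the intermediate filament of neural progenitors, at 7596 ± 1610 against 3027 ± 452 (1.31 ± 0.15). GRIA2, an AMPA receptor subunit, fell from 62.8 ± 15.9 to 14.5 ± 5.30, and PAX6 from 313 ± 14.1 to 103 and 100 in line 1 and 236 and 233 in line 2, PAX6 not being called without wt 1.1A, wt 1.3B, neil123 1A or neil123 1B (limma adjusted p up to 0.0757) or with 1 mean per line (0.134). So neural genes as such had no 1 direction, and their median was 0.19.

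Among 23 tested clustered protocadherins, which give neurons surface identities, 8 were higher and 0 lower (median 0.46), with 4 higher without wt line 1.1 and 5 without either neil123 line. PCDHB5 was at 723, 560, 629 and 589 in neil123 1A, 1B, 2A and 2B and 175, 136, 196 and 184 in wt 1.1A, 1.1B, 1.3A and 1.3B (1.85 ± 0.12, limma adjusted p = 9.53e-07), and PCDHB3 at 92.6 ± 21.7 against 26.4 ± 2.73. These genes are near copies in tandem, so the split of reads among them is uncertain. Of 33 HOX genes 0 were higher and 5 lower, 4 of them being HOXC9, HOXC10, HOXC11 and HOXC13 of 1 cluster (HOXC13 was called in 1 of the 8 fits without 1 library, and the list had 3 lower without any 1 of wt 1.1A, 1.3A and 1.3B and neil123 2A and 2B). HOXC10 was at 64.1, 54.3, 52.5 and 42.2 against 162, 146, 157 and 157 (-1.54 ± 0.14, limma adjusted p = 2.21e-05). Of 14 blood genes 1 was higher and 5 lower, or 3 without wt 1.3A or 1.3B. KIT, the stem cell factor receptor, fell from 365 ± 39.2 to 83.9 ± 42.6 (-2.25 ± 0.29), MYB by 0.98 ± 0.12, and TAL1 rose by 0.54 ± 0.07. PDGFRA, a mesenchymal growth factor receptor, was at 2308 ± 327 against 695 ± 262, while THY1, a marker of stromal cells, had 1 read over the neil123 group against 99 (a ratio of 100.4-fold, 95% counting interval 17.61 to 4006; under the filter without wt 1.1A or 1.3A). EPCAM, an epithelial adhesion protein, fell by 1.96 ± 0.33. Summed over each marker list, blood markers were at 1907 to 2124 in neil123 and 2044 to 2253 in wt, epithelial at 1817 to 3856 and 2187 to 4039, neural at 41294 to 50792 and 42205 to 45210, and fibroblast at 1962 to 2706 and 412 to 1052, nearly all of it PDGFRA. Of 8 tested fibroblast and stromal genes 1 was higher (PDGFRA) and 4 lower, with a median of -0.79. Of these 4 sums only the fibroblast sums did not overlap, and the part of such marker genes in the other results was not tested.

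Signalling genes of the BMP and WNT pathways followed. BMP7 was at 1825, 1802, 1676 and 1861 in neil123 1A, 1B, 2A and 2B and 214, 262, 386 and 461 in wt 1.1A, 1.1B, 1.3A and 1.3B (limma adjusted p = 3.61e-06), whereas BMP2 was at 1, 3.13, 2.92 and 2.01 against 44.8, 89.9, 26.2 and 65.1 (-4.06 ± 0.40). The BMP targets ID2 and ID3, which block basic helix-loop-helix factors, rose by 0.56 ± 0.09 and 0.42 ± 0.07, and in all 6 of 31 genes were higher and 3 lower. The frizzled receptor FZD10 was at 409 ± 43.0 against 120 ± 5.18 (1.76 ± 0.10, limma adjusted p = 2.4e-07), the ligands WNT10B and WNT5A rose by 1.01 ± 0.16 and 0.69 ± 0.09, and the secreted inhibitor SFRP1 fell by 1.16 ± 0.22 (limma adjusted p = 0.00393, and 0.0535 with 1 mean per line). Of 34 WNT genes 7 were higher and 2 lower, or 1 lower without wt 1.3B.

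Steroid and other nuclear receptors had 5 of 24 higher and 3 lower, with PGR the largest. NR2F1, an orphan receptor of neural crest and brain, was at 1093 ± 95.9 against 707 ± 73.9 (SD, n = 4 each; 0.63 ± 0.08, limma adjusted p = 0.000354), and PPARG, the receptor that drives fat cell genes, at 375 ± 64.9 against 717 ± 96.6 (-0.94 ± 0.12). TFR2, a transferrin receptor of iron sensing, was the 1 of 16 iron and heme genes called, at 157 ± 11.9 against 304 ± 24.3 (-0.94 ± 0.10, limma adjusted p = 5.27e-05), while the main transferrin receptor TFRC was not called (10640 ± 560 against 10475 ± 553). Several lists held calls near or under the shares over all genes tested, 6.27% higher and 4.84% lower. Of 45 replication and mitosis genes 1 was higher and 2 lower, and of 20 p53 targets 1 was higher and 1 lower. Of 26 lysosome and autophagy genes 1 was higher and 0 lower, and of 23 endoplasmic reticulum stress genes 1 was higher and 1 lower. Over the fits without 1 library these counts ranged from 0 to 3.

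The same genotype difference was measured without BSO in the media libraries, where 578 genes were higher and 488 lower (1066 of 14375, 7.42%). No library was shared between the 2 comparisons, though the lines were. Of 1591 genes called with BSO and tested in both, 863 were called in media, all 863 in the same direction, which was 54.2% of the BSO calls and 81.3% of the media calls; 98.9% of the BSO calls had the same sign in media. Across the 14252 genes tested in both, which are not independent replicates, Pearson's r of the differences was 0.914 and Spearman's rho 0.666. The median size over the BSO calls was 0.46 with BSO and 0.39 in media.

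**Figure D4:**
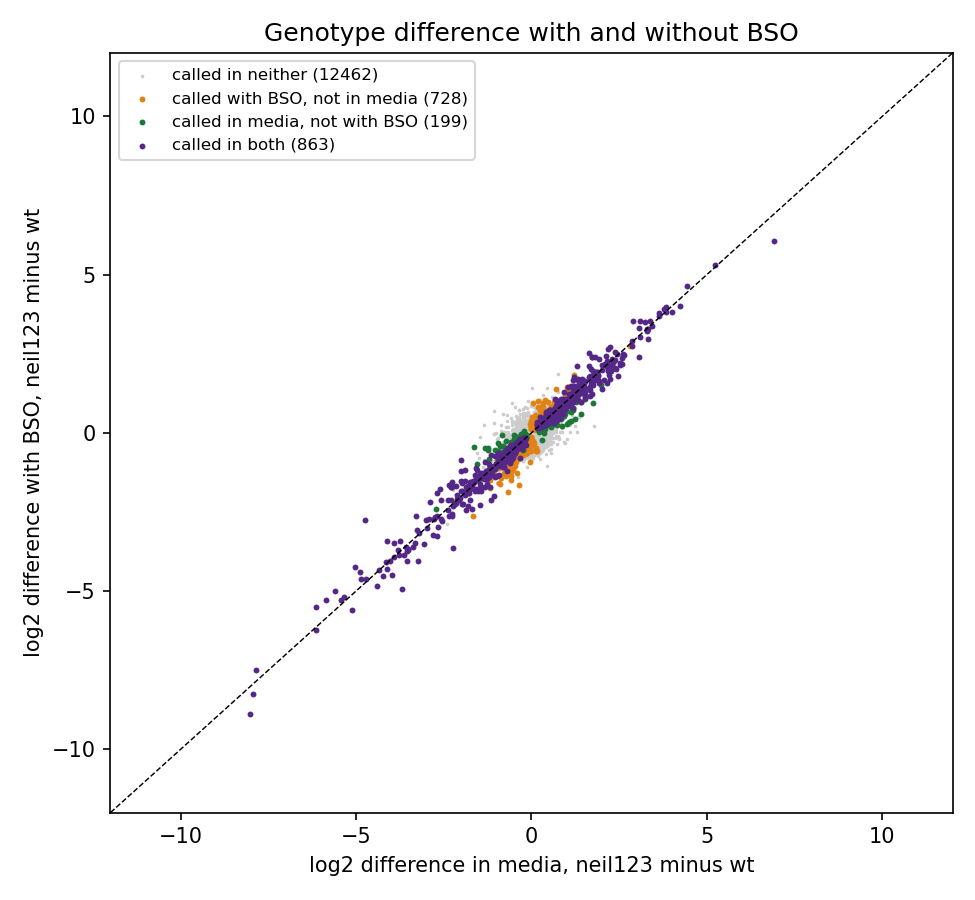
Log2 difference of neil123 over wt with BSO (vertical) against that in media (horizontal) for 14252 genes, coloured by call; the dashed line marks equal differences. The 863 genes called in both lie along the line, and the 728 called with BSO and not in media lie mostly near the centre.

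Whether the genotype difference itself changed with BSO was tested on all 16 libraries. Without pairing, limma called 0 of 14384 genes (0%; 345 at an unadjusted p under 0.05), and edgeR, limma on 1 mean per line and treatment, and limma on all 42 libraries each called 0. With each BSO library paired to the media library of the same line and letter, limma called 8 (0.0556%; 1441 at an unadjusted p under 0.05), 4 in each direction. FOS had the largest: 1789, 1031, 629 and 314 normalized reads in wt 1.1A, 1.1B, 1.3A and 1.3B in media and 573, 292, 234 and 102 with BSO, beside 59.8, 25.9, 18.8 and 20.3 in neil123 1A, 1B, 2A and 2B in media and 37.0, 66.8, 24.3 and 28.1 with BSO. FOS RNA was lower with BSO in all 4 wt pairs and higher in 3 of 4 neil123 pairs, so the gap to wt was narrower with BSO by 1.99 ± 0.27 (paired limma adjusted p = 0.00262).

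CCN1 was lower with BSO in all 4 wt pairs, from 7801, 5674, 6650 and 5540 to 5604, 4036, 5105 and 4341, and lay between 6353 and 10192 in neil123 under either condition; its gap was wider with BSO by 0.38 ± 0.05 (paired limma adjusted p = 0.00234). TXNIP went the other way: it was at 436 to 466 in wt in media and 574 to 655 with BSO, but at 382 to 425 and 362 to 437 in neil123 (-0.47 ± 0.08, paired limma adjusted p = 0.0436). The mitochondrial genes CYTB (-0.43 ± 0.08) and ATP8 (-0.46 ± 0.06) were 2 of the 4 with a negative change. ATP8 was not called between genotypes with BSO by limma or edgeR. It passed by DESeq2 (adjusted p = 0.0184) and in 2 of the 8 limma fits without 1 library. The fourth was STX18, a membrane fusion protein of the endoplasmic reticulum (-0.40 ± 0.06). STX18 was at 1637 to 2246 in wt in media, 1912 to 3150 in wt with BSO, and 859 to 1027 in all 8 neil123 libraries. PI15 (0.55 ± 0.08) and ACSL3, an acyl-CoA synthetase (0.26 ± 0.04), were the other two with a positive change, though neither was called between genotypes with BSO. By list, the change with BSO differed one way in every gene for the 13 mitochondrial genes described above and for cytosolic heat shock proteins, where the BSO minus media difference was above that of wt for 19 of 19 genes (a median of -0.20 in wt and -0.09 in neil123), beside 7881 of all 14394 genes, and none of the 19 was called by the paired test. The range of paired limma adjusted p over the 8 genes was 0.00234 to 0.0436.

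**Figure D5:**
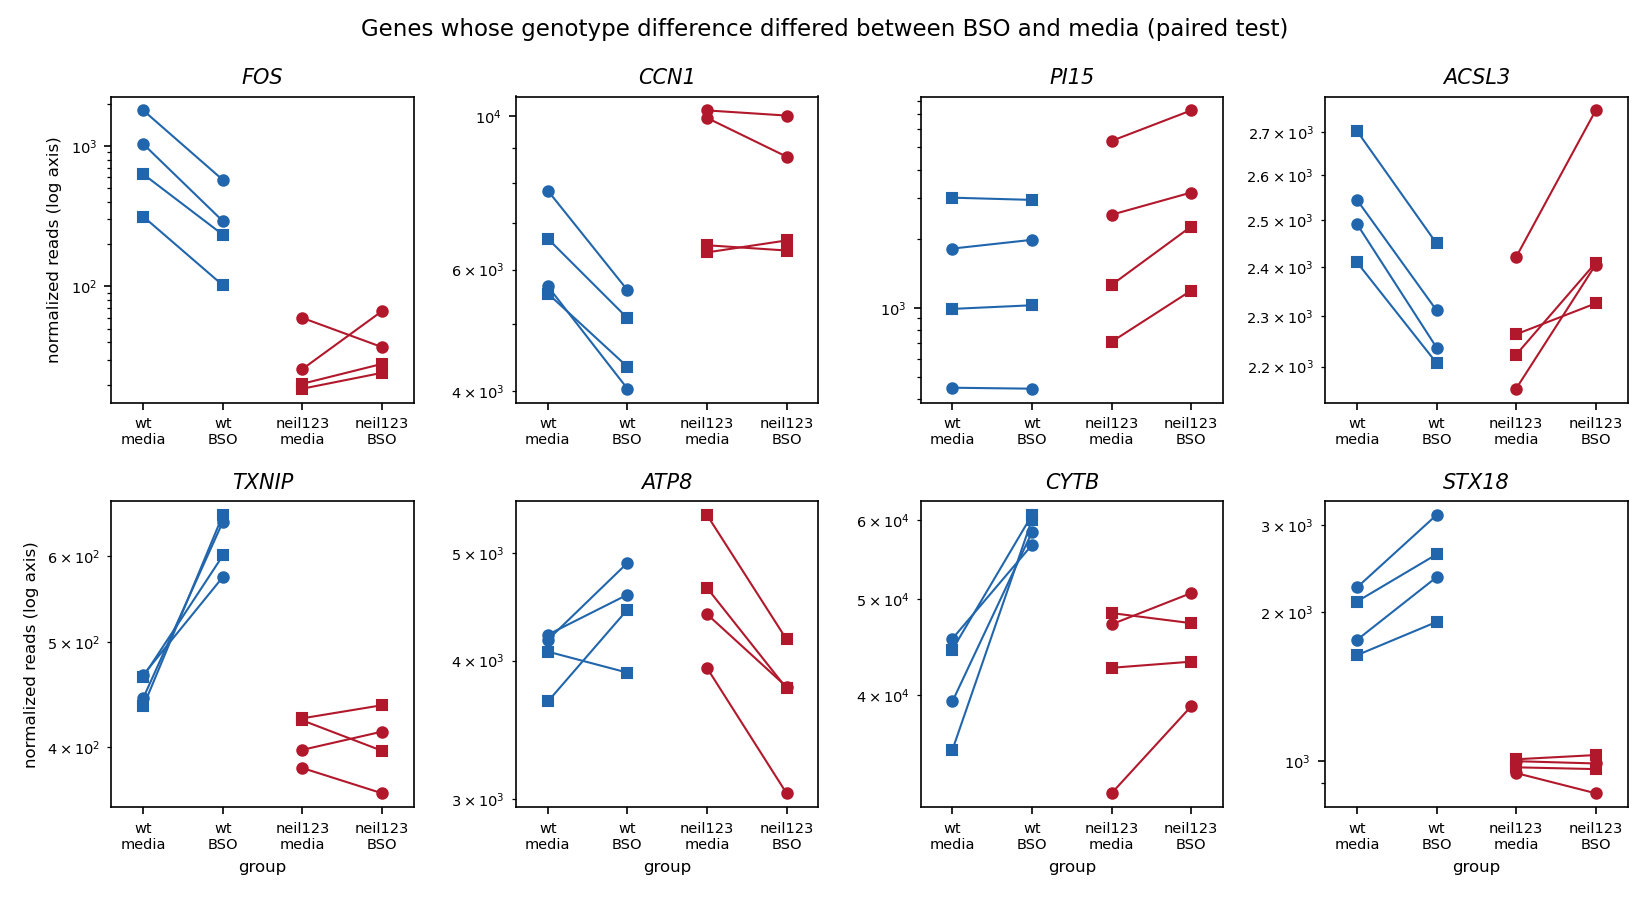
Normalized reads (log axes, a scale of its own for each gene) of the 8 genes called by the paired test, in media and with BSO; lines join libraries of the same line and letter, blue wt and red neil123, marker shape by line. FOS falls in all 4 wt pairs from 314 to 1789 down to 102 to 573, and is at 18.8 to 66.8 in neil123.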

How the data were processed

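RNA of 42 HAP1 libraries was measured by sequencing, and 8 of them are compared here. Per the submitters' processing notes, Trim Galore, HISAT2, SAMtools, featureCounts and DESeq2 were used with GRCh38 (hg38); their versions, order and strand setting are not stated there, so antisense and overlapping genes cannot be told apart. The deposited signal values are read counts that the authors divided by a size factor per library; every value was a whole number of reads (100% of values, relative tolerance 1e-06). Of 30182 entries, 9667 without a symbol, 0.948% to 1.12% of the reads, were left out, and every column matched a library.

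Groups follow the names of the libraries. limma 3.58.1 (R 4.3.3) with a mean-variance trend was fitted to log2(value + 1) for genes whose mean over the 8 libraries reached 10, with Benjamini-Hochberg adjustment over all of them. The same design compared the genotypes in media and neil123 with neil3, and a 4-group fit over 16 libraries gave the interaction with BSO. BSO and media libraries of the same line and letter deviated together from their group means (r 0.288 to 0.536 in 8 pairs, each correlating best with its own partner), so the interaction was also fitted with that pairing. Alternatives were edgeR 4.0.16 and DESeq2 1.42.0 on the whole reads, other scalings, pseudocounts (0.5 and 5) and filters, 1 mean per line, and leaving out each library or line. The test was checked on simulated data. The reads of replicate libraries differed by a chi-square of 2.97 to 16.2 for each degree of freedom, so none was a copy of another, and intervals on read ratios cover counting error only.

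The libraries and the 48 gene lists (1223 genes, 1013 tested) were chosen with earlier results of these data known. The text names NEIL1 to NEIL3, the 15 largest rises and 15 largest falls without overlap whose higher group averaged at least 50, up to 4 genes a list and direction, 12 redox and iron genes whatever their test, and the paired interaction genes; TCEAL1, TCEAL4, RUNDC3B, FAM155A, AARS1, NES and HOXC13 fall outside this rule and were chosen after their values were seen. ATF4 and the cell type markers given only as levels are also outside the rule, and the counts of named genes below leave them out. Promoter windows are the 250 bases before the start in the RefSeq table.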

Additional observations from a re-analysis of the deposited data

Results flagged for a closer look

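In the groups of 4 BSO libraries of the genes named in the text, 13 of 244 (5.33%) had 1 library apart from the other three by more than Dixon's 95% limit, about the 1 in 20 that chance gives. In neil123 these were NRXN3 in 2B at 168 normalized reads (next 124), PDE10A in 1B at 29.2 (next 6.01), GSTA4 in 2B at 1625 (next 1393), ASNS in 1B at 133 (next 80.7), TAL1 in 1B at 1368 (next 1515) and TDG in 1B at 3001 (next 3165). In wt they were NOL4 in 1.1A at 11.5 (next 2.01), SLC1A4 in 1.1B at 1615 (next 2070) and DDIT4 in 1.1B at 1249 (next 1768). The remaining 4 were genes near absence in neil123, where 1 or 2 reads set a library apart: TCEAL9 in 1A at 2 (next 0), SNTG2 in 2B at 0 (next 0.973), CNTN1 in 2B at 1 (next 0) and THY1 in 2B at 1 (next 0). ASNS, SLC1A4 and DDIT4, which respond to amino acid shortage, were each set apart by a replicate B of line 1 or 1.1.

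The difference between genotypes changed with BSO, by the test paired on line and letter, for TXNIP (-0.47), ATP8 (-0.46), CYTB (-0.43), STX18 (-0.40), ACSL3 (0.26), CCN1 (0.38), PI15 (0.55) and FOS (1.99), all as log2 of the difference with BSO minus that in media. Without the pairing none of the 8 passed.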

How the results depend on the processing

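All 1599 genes called between neil123 and wt with BSO kept their direction under edgeR, DESeq2, equal totals and both other pseudocounts. They also kept it with the letter block and 1 mean per line. These settings refit the same 8 libraries on genes already called in them, so a kept direction was nearly fixed in advance. It is no separate evidence. The count of higher genes was 415 without wt line 1.1 and 391 without wt line 1.3, and that of lower genes 350 and 280; with 1 library left out the ranges were 578 to 800 and 455 to 657. With 1 mean per line 626 were higher and 483 lower, and 1043 of the 1599 were still called; edgeR gave 789 and 780, DESeq2 955 and 901. With the letter A or B of the name as a replicate block, 1290 were higher and 953 lower. The main fit has no such term, though the deviations of letter A correlated between genotypes (r 0.34). By chi-square for each degree of freedom, wt libraries differed by 2.97 and 4.32 within a letter and by 11 and 9.21 within a line. In neil123 these were 9.99 and 8.55 within a letter and 10.9 and 6.34 within a line. The interaction went from 0 and 0 to 4 higher and 4 lower with the replicate block of line and letter, and with 1 library left out it was 0 to 0 without that block, as it was with 1 mean per line and treatment and with all 42 libraries. The comparison with neil3 gave 46 higher and 35 lower with 1 mean per line, and 291 to 591 higher and 275 to 470 lower with 1 library left out.

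Of 107 named genes called, 95 were called in all 8 fits without 1 library, 97 with 1 mean per line, 105 by edgeR and 105 by DESeq2. TDG and HRK were lost by edgeR, and HRK and PAX6 by DESeq2. NEIL3, SCD5, ACSL4, ASNS, BEX4, COL9A3, HRK, PAX6, HOXC13 and SFRP1 were lost with 1 mean per line, and GCLM, GSR, NQO1 and HMOX1 passed with it. GCLM (0.017), GSR (0.00529) and NQO1 (0.00805) also passed with the letter block (limma adjusted p). GPX4 was at -0.025 in the fit of all 42 libraries, TXNRD1 at -0.064 without neil123 line 1, and TFRC at -0.0103 without neil123 line 1 and from -0.0122 to 0.045 without 1 library (-0.00998 without wt 1.3B); none of these was called in any of the fits, and the cause was not tested. For a gene at 0 reads in 1 library, the expected count may still be up to 3 (95% limit).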
